A study of Homo sapiens with 3 samples.

Results

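SPIN1 and SPINDOC are the human genes that encode Spindlin1 and C11orf84, and they were examined here as places where these same proteins were recovered on chromatin. Peaks of both deposited lists were taken when at least 1 bp lay within 50 kb of a gene. The gene ranges, rounded to the kilobase, were chromosome 9 from 91003000 to 91094000 for SPIN1 and chromosome 11 from 63580000 to 63596000 for SPINDOC, in the human genome build hg19. The rule found 51 peaks of 331107 in both lists together. These were 21 of 153468 Spindlin1 peaks (7 at SPIN1 and 14 at SPINDOC) and 30 of 177639 C11orf84 peaks (10 and 20).

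Chromatin immunoprecipitation with sequencing (ChIP-seq) had been done in U2OS, an established human osteosarcoma cell line. The groups were a Spindlin1 immunoprecipitation, a C11orf84 immunoprecipitation and an Input made with no antibody, 1 library each, all from untreated cells crosslinked with 1% formaldehyde for 10 min. Only the peak lists of both immunoprecipitations were analysed here. They hold no expression values, so the identity of the cells was not checked. With 1 library per antibody there was no replicate check, and no test between conditions was possible.

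Spindlin1 is a histone reader built from Tudor-like domains, which bind the tail of histone H3 when its lysine 4 is trimethylated (H3K4me3). That mark is found mainly at the starts of active genes, and Spindlin1 is known as a transcriptional coactivator. C11orf84, also named SPIN-DOC, binds Spindlin1 directly, which is thought to change how the reader engages histone tails. A protein that binds near active starts can lie at its own gene, and the series asked where in the genome the 2 proteins lie.

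Each peak is described by its position, by the authors' fold enrichment of the summit over a local background, and by the number of fragments over the summit (summit depth), which was recovered from the authors' fold and p-value. Background is given relative to the lowest background of the list, called the floor (0.949 fragments for Spindlin1 and 1.04 for C11orf84). A peak is called shared when at least 1 bp overlaps a peak of the other list. Over chromosomes 1 to 22 and X, the shared part was 69.7% for Spindlin1 and 57.6% for C11orf84, and the median summit depth was 11 and 12 fragments. Total read numbers are not known from the lists. The start of a gene means 2 kb on either side of the first base of its range, and the body runs from there to the last base. Both genes were taken to run from the lower to the higher coordinate, and SPIN1 is on the plus strand in the RefSeq table used here. Their RefSeq gene identifiers are 10927 and 144097.

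Both proteins had peaks at the start of SPIN1. The 3 Spindlin1 peaks there covered 1095 bp and the 2 C11orf84 peaks covered 1152 bp of the 4001 bp around the start, 27.4% and 28.8% of its bases. All 5 were shared. The start was the only place within 50 kb of the gene, apart from a single site downstream, where the lists overlapped.

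The first Spindlin1 peak at the SPIN1 start lay at 91002684 to 91003205 (522 bp), with 14 fragments over the summit (exact Poisson 95% interval 7.65 to 23.5, counting error only) and a fold of 6.02. It had 440 bp in common with the first C11orf84 peak, at 91002766 to 91003211 (446 bp), which also reached 14 fragments and had a fold of 5.56 in its own list. Their summits stood 208 bp apart, at 68 bp before and 140 bp after the first base of the range. With the same number of fragments, the 2 peaks covered nearly the same interval.

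Further into the gene, a single C11orf84 peak at 91003376 to 91004081 (706 bp, 14 fragments, fold 4.60) overlapped 2 separate Spindlin1 peaks. These lay at 91003318 to 91003545 (228 bp, 11 fragments, fold 5.03) and at 91003727 to 91004071 (345 bp, 12 fragments, fold 4.69). The first had 170 bp (74.6% of its width) in common with the C11orf84 peak, and the second fell wholly inside it. The summit of the second was 269 bp from the C11orf84 summit, and that of the first was 343 bp away, so the highest points of the 2 lists did not coincide here.

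The SPIN1 start peaks were of middling strength in their lists. Of all Spindlin1 peaks, 71.6% had fewer fragments than the first one, 36.1% fewer than the second and 50.3% fewer than the third. Of all C11orf84 peaks, 65.7% had fewer than 14 fragments. By fold, which divides by the local background, the same peaks stood lower, with 54.5%, 23.1% and 17.5% of the Spindlin1 list below them and 43.1% and 14.7% of the C11orf84 list. The background under them was 1.46 to 1.87 times the floor for Spindlin1 and 1.64 and 2.18 times for C11orf84. None reached a −log10 q of 10, a level passed by 11.8% of all Spindlin1 and 15.7% of all C11orf84 peaks.

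**Figure D1:**
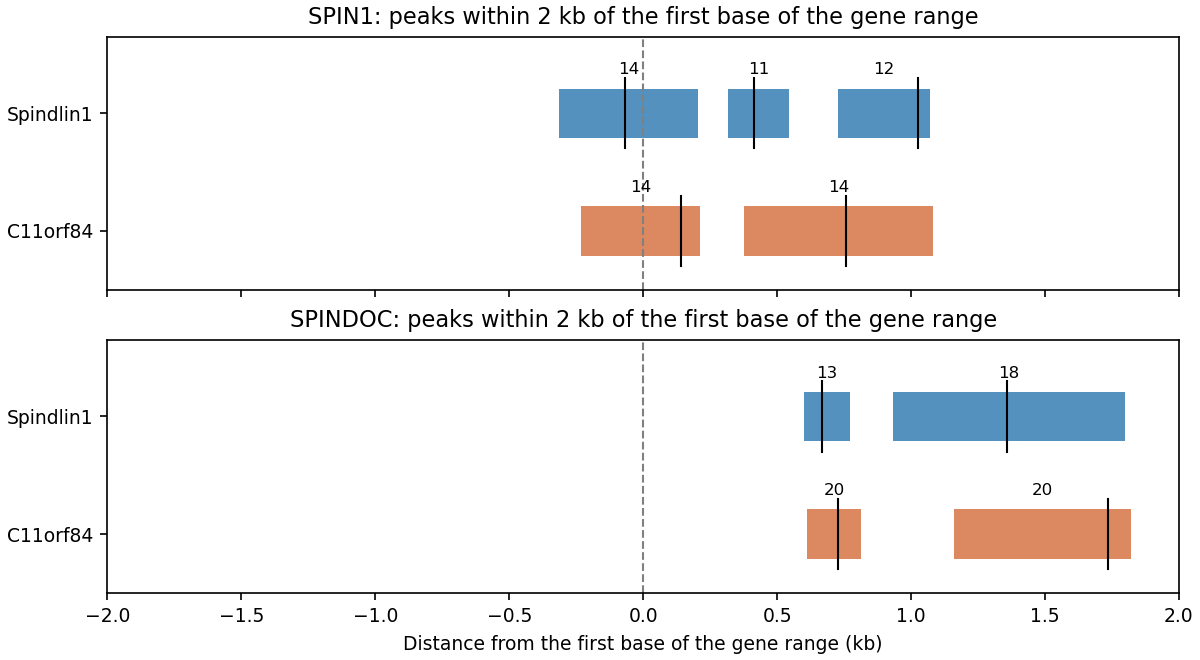
Peaks at the starts of SPIN1 (upper panel) and SPINDOC (lower panel), drawn to scale. Horizontal bars are peak intervals of the Spindlin1 list (blue) and the C11orf84 list (orange), the horizontal axis is the distance in kb from the first base of the gene range (dashed line), black ticks mark summits and the numbers give summit depth in fragments. Every bar overlaps a bar of the other list, and at SPIN1 the second C11orf84 bar overlaps 2 Spindlin1 bars.

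The bases before the RefSeq start of SPIN1 are shown because this is the gene's CpG-rich promoter and peaks of both lists lay at the gene's start. The sequence is RefSeq's, in build GRCh38.p14 at chr9:88388194-88388443 on the plus strand. That build differs from the hg19 of the peaks, so its bases were not laid over single peaks. Capitals mark GGGCGG or its reverse complement CCGCCC, the core letters of the GC box that Sp1-type factors recognise.
SPIN1 promoter: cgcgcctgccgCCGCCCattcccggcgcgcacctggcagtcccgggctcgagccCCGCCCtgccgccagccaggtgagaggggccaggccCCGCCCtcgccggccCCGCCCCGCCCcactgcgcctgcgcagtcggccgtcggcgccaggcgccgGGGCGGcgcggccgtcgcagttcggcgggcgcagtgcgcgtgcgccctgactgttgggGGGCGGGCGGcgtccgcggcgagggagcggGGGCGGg

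These 250 bases held 43 CpG and were 84% G or C, against medians of 11 CpG and 58% over the 35116 RefSeq promoters of the same length. Fewer CpG were found in 99.0% of those promoters. GGGCGG occurred 9 times counting both strands, 4 as written and 5 as the reverse complement, and 2 pairs of these matches overlapped each other. It was present in 42.6% of all promoters. Searched on both strands, the CCAAT box had 0 matches in this window, and 32.0% of all promoters held it. The TATA box core (TATAAA), the E-box CACGTG and the G-rich run GGGAGGG had 0 matches as well, and 10.7%, 6.34% and 24.7% of all promoters held them. A match is a run of letters and not a measured site. SPINDOC had no entry in the promoter table.

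Past its start, the body of SPIN1 was almost free of peaks. In the 89 kb of the body 0 Spindlin1 peaks and 1 C11orf84 peak were called. The C11orf84 peak lay at 91049680 to 91049859, 46.8 kb into the gene, and was weak, with 8 fragments, a fold of 4.37 and the shortest width its list holds (180 bp). The nearest Spindlin1 peak was 45.6 kb away.

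The stretch without a Spindlin1 peak ran for 113.49 kb, from 91004072 to 91117561, which takes in the whole body and the first part of the downstream flank. It was the longest of the 58 intervals between neighbouring Spindlin1 peaks in the surrounding 1 Mb. Over chromosomes 1 to 22 and X, 5216 of 153355 such intervals (3.40%) were at least as long. For C11orf84 the body peak divided the stretch into 45.6 kb and 60.5 kb. Of its intervals in the genome, 5.48% were at least as long as the second. Both shares count intervals and not bases, so the part of the genome that lies in intervals this long is larger. In all windows of 89 kb laid end to end that held a peak of either list (21756), the median was 2 Spindlin1 and 3 C11orf84 peaks. Of them, 13.1% had 0 Spindlin1 peaks and 34.5% had at most 1 C11orf84 peak. Windows without a peak of either list were left out, and counting them would raise both shares. An interval without a peak has no call at these depths, and the fewest fragments of any peak called at the floor were 6 in both lists.

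The flanks of SPIN1 differed between the lists. Upstream, 2 Spindlin1 peaks and 0 C11orf84 peaks were found. The Spindlin1 peaks lay at 90986079 to 90986367 (10 fragments, fold 5.64) and 90992506 to 90992677 (7 fragments, fold 4.11), both at the floor and with no C11orf84 peak nearer than 16.4 kb and 10.1 kb. Downstream, 2 Spindlin1 and 7 C11orf84 peaks were found, and the groups overlapped in depth (11 fragments for both Spindlin1 peaks, 10 to 13 for C11orf84).

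The downstream C11orf84 peaks were bunched. Between 91116138 and 91120914, a span of 4.78 kb that begins 113 kb from the gene start, lay 4 C11orf84 peaks and 2 Spindlin1 peaks. The last of each overlapped by 176 bp, at 91120724 to 91120914 for Spindlin1 (11 fragments) and 91120705 to 91120899 for C11orf84 (12 fragments), with summits only 24 bp apart. The other Spindlin1 peak, at 91117562 to 91117757, missed the C11orf84 peak at 91118575 to 91118765 (13 fragments) by 817 bp. A further 3 C11orf84 peaks had no Spindlin1 peak within 5 kb. They lay at 91110325 to 91110506 (11 fragments), 91139937 to 91140127 (13 fragments) and 91142651 to 91142830 (10 fragments). NXNL2 is the next coding gene in RefSeq order, and these peaks were not assigned to it, since no hg19 annotation was used here.

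**Figure D2:**
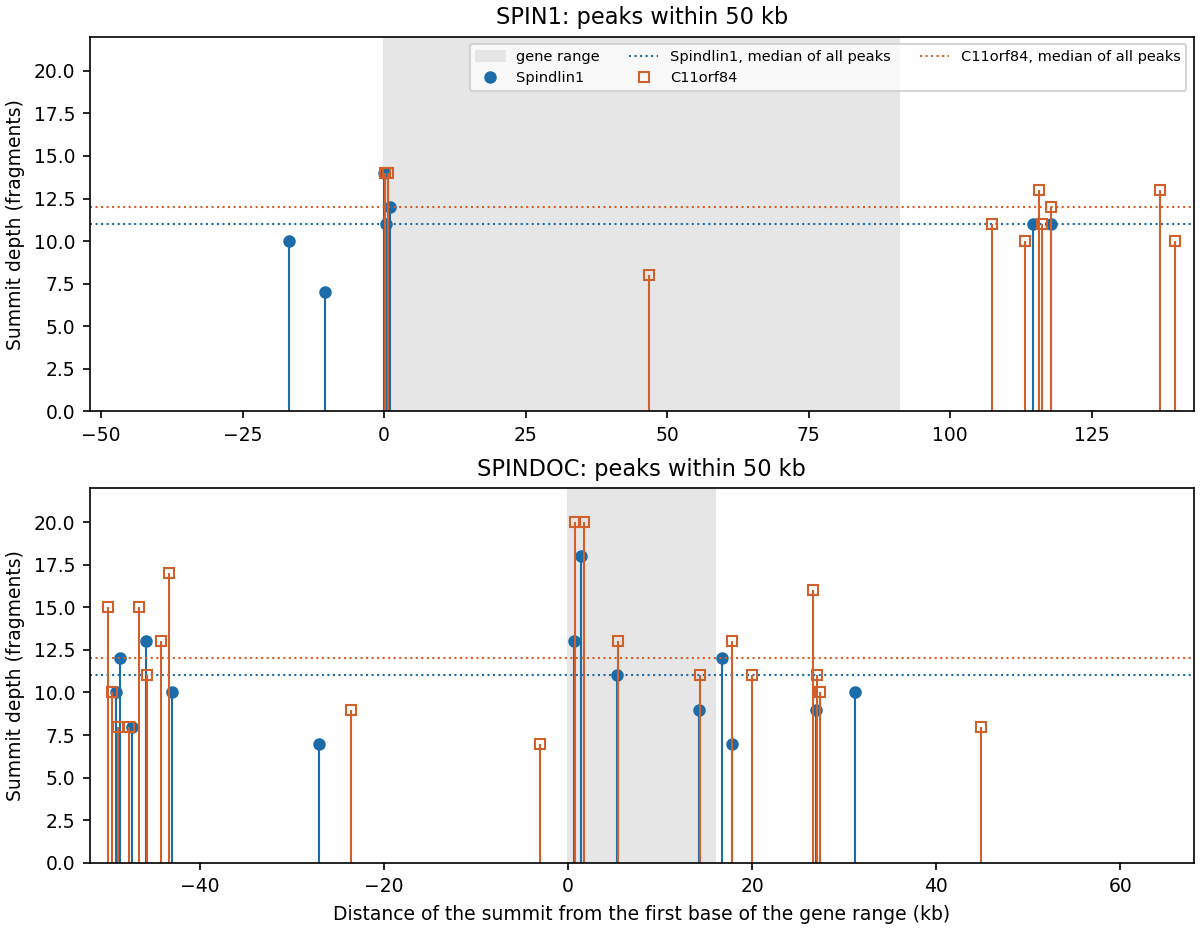
Peaks within 50 kb of SPIN1 (upper panel) and SPINDOC (lower panel). Each stem is 1 peak, at the distance in kb of its summit from the first base of the gene range, with its summit depth in fragments as height (filled blue circles Spindlin1, open orange squares C11orf84). Grey marks the gene range and dotted lines the median depth of all peaks of each list, 11 and 12. Stems are grouped at both gene starts, downstream of SPIN1 and near the upstream edge of the SPINDOC window. The body of SPIN1 has a single stem of 8 fragments.

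SPINDOC carried the deepest peaks of the 51 at its start. There, 2 Spindlin1 peaks covered 1035 bp (25.9% of the 4001 bp) and 2 C11orf84 peaks covered 862 bp (21.5%), and all 4 were shared. Each list had 1 peak at each of 2 places.

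At the first place, the Spindlin1 peak ran from 63580601 to 63580772 (172 bp) and the C11orf84 peak from 63580613 to 63580811 (199 bp), with 160 bp in common and summits 58 bp apart. The summit held 13 Spindlin1 fragments (exact Poisson 95% interval 6.92 to 22.2) and 20 C11orf84 fragments (12.2 to 30.9). These intervals overlapped. The folds were 3.98 and 5.92, over backgrounds of 2.65 and 2.45 times the floor, and the background of at least 2 times the floor seen here was found at 9.07% and 9.19% of all peaks.

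The second place held the strongest Spindlin1 peak of the 21, at 63580934 to 63581796 (863 bp). It had 18 fragments (10.7 to 28.4), a fold of 7.63 and a −log10 q of 10.9, and 91.6% of the Spindlin1 list had fewer fragments. The C11orf84 peak there, at 63581159 to 63581821 (663 bp), had 20 fragments, a fold of 7.16 and a −log10 q of 11.2, and 93.9% of its list had fewer fragments. They had 638 bp in common, which is 73.9% of the Spindlin1 and 96.2% of the C11orf84 peak. The C11orf84 summit stood 377 bp further into the gene than that of Spindlin1. In width these peaks exceeded 97.7% and 92.6% of their lists.

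The body of SPINDOC, 14 kb in length, had 2 peaks of each list. One shared place lay 5.36 kb into the gene, at 63585276 to 63585646 for Spindlin1 (11 fragments, fold 5.96) and 63585305 to 63585839 for C11orf84 (13 fragments, fold 6.77), with 342 bp in common and summits 93 bp apart. Near the end of the range, a Spindlin1 peak at 63594141 to 63594312 (9 fragments) and a C11orf84 peak at 63594334 to 63594513 (11 fragments) lay side by side with 21 bp between them. They count as unshared, although their summits were only 159 bp apart. All 4 body peaks stood within 1.07 times the floor.

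Upstream of SPINDOC, most peaks were gathered near the edge of the window. From 63529819 to 63537196, a span of 7.38 kb that ends 42.8 kb before the gene, lay 5 Spindlin1 and 8 C11orf84 peaks, 4 of each shared. Spindlin1 had 8 to 13 fragments there and C11orf84 had 8 to 17. The deepest C11orf84 peak outside the starts was among them, at 63536325 to 63536947 (17 fragments, fold 8.10), beside a Spindlin1 peak of 10 fragments at 63536599 to 63537196. The deepest Spindlin1 peak outside the starts, at 63534070 to 63534262 (13 fragments, fold 5.33), overlapped a C11orf84 peak of 11 fragments over 180 bp. Another Spindlin1 peak, of 12 fragments at 63531121 to 63531452, overlapped a C11orf84 peak of 8 fragments over 245 bp. Of the 2 C11orf84 peaks with 15 fragments, at 63529819 to 63530116 and 63533237 to 63533785, neither was shared, and the nearest Spindlin1 peaks were 612 and 284 bp away.

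Between this cluster and the SPINDOC start, over the remaining part of the upstream flank, there were 1 Spindlin1 peak and 2 C11orf84 peaks. The Spindlin1 peak at 63552916 to 63553186 had 7 fragments. The C11orf84 peaks at 63556265 to 63556444 and 63576822 to 63577001 had 9 and 7. None of the 3 was shared. ZFTA is the coding gene before SPINDOC in RefSeq order and MARK2 the one after it, and no peak was assigned to either.

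Downstream of SPINDOC, 4 Spindlin1 and 6 C11orf84 peaks were found, of which 2 and 3 were shared. The deepest C11orf84 peak here, at 63606414 to 63606785 (16 fragments, 80.3% of its list having fewer), touched a Spindlin1 peak of 9 fragments at 63606783 to 63607206 over only 3 bp. That Spindlin1 peak overlapped the next C11orf84 peak, at 63606871 to 63607228 (11 fragments), over 336 bp. The deepest Spindlin1 peak downstream had 12 fragments, at 63596663 to 63596836, and was 678 bp from the nearest C11orf84 peak. Near SPINDOC, a single peak was farther than 5 kb from the other list, a C11orf84 peak at 63624796 to 63624975 with 8 fragments.

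By the overlap of at least 1 bp, the 9 start peaks of both genes were all shared, and 17 of the other 42 were. An overlap makes a peak of each list shared, so these counts hold both partners and are not separate places. With at least 50% of both intervals in common, this held for 6 of the 9 and 12 of the 42. With summits at most 200 bp apart the order turned, with 2 of the 9, both at SPINDOC, and 14 of the 42. For these last 2 definitions the share over all peaks is not given here, so no usual level stands beside the counts. Over both genes, 13 of 21 Spindlin1 peaks (61.9%, exact Clopper-Pearson 95% interval 38.4 to 81.9) and 13 of 30 C11orf84 peaks (43.3%, 25.5 to 62.6) were shared, and both intervals include the values over all peaks. The interval takes each peak as independent, which neighbouring peaks are not. By gene, the share was 57.1% (18.4 to 90.1) for Spindlin1 and 30% (6.67 to 65.2) for C11orf84 at SPIN1, and 64.3% (35.1 to 87.2) and 50% (27.2 to 72.8) at SPINDOC. In merged form, the peaks at SPIN1 made 13 separate places, 3 held by both proteins, 3 by Spindlin1 and 7 by C11orf84. At SPINDOC they made 24, of which 9 were held by both, 5 by Spindlin1 and 10 by C11orf84.

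The shares depended on how coincidence was defined, in percent most of all at SPIN1, where few peaks were counted. There, 2 of 7 Spindlin1 (28.6%) and 2 of 10 C11orf84 peaks (20%) had at least 50% of both intervals in common. A summit of the other list at most 200 bp away was found for 1 peak of each list (14.3% and 10%). At SPINDOC these values were 50% and 35% under either definition. Whole-list shares under these definitions are not given here. The 7 Spindlin1 peaks with so near a summit at SPINDOC were 6 of the 9 that overlapped and the 1 beside the end of the range that did not.

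Start peaks were deeper than the others in median, and their background was higher as well. The 5 Spindlin1 start peaks had 11 to 18 fragments (median 13), and the 16 elsewhere had 7 to 13 (median 10). The 4 C11orf84 start peaks had 14 to 20 (median 17), against 7 to 17 (median 11) for the 26 elsewhere. The ranges overlapped in both lists. In width the start peaks had medians of 345 bp (Spindlin1) and 554.5 bp (C11orf84), against 231 and 218.5 bp elsewhere. A wider peak meets the 1 bp overlap more easily, and the part of width in the sharing was not tested. None of the 9 start peaks stood at the floor, and their background ran from 1.46 to 2.65 times the floor, whereas 24 of the other 42 stood at it. In fold, which divides by the background, the start peaks had the lower median for Spindlin1 (5.03 against 5.47) and the higher for C11orf84 (5.74 against 5.55). The part of the background in the depth at the starts was not tested.

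**Figure D3:**
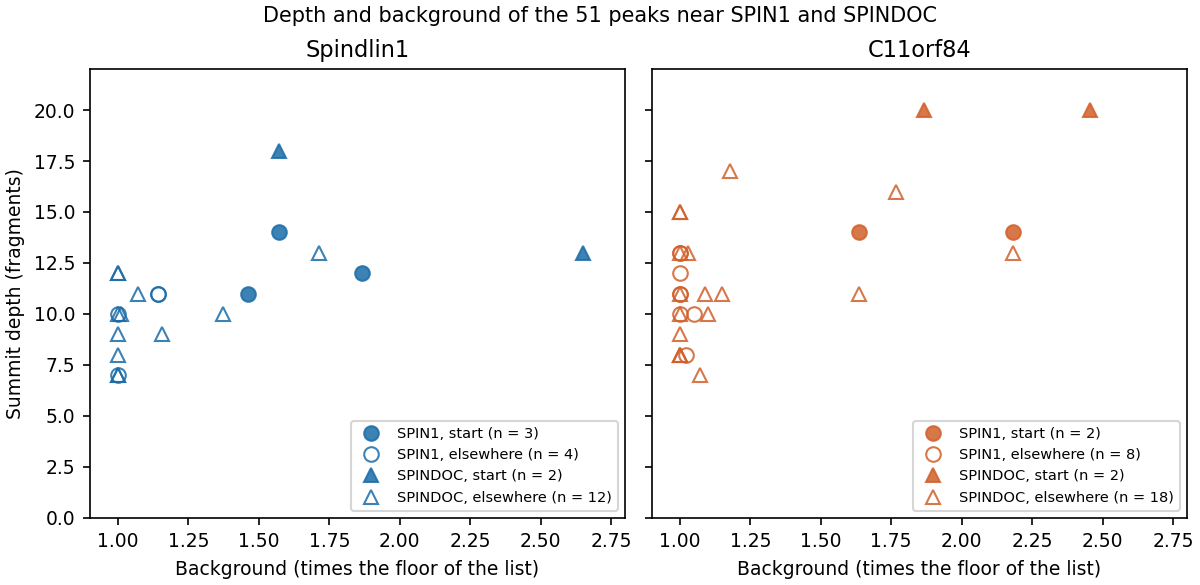
Summit depth in fragments (vertical axis) against the background relative to the floor of the list (horizontal axis) for the 21 Spindlin1 peaks (left) and the 30 C11orf84 peaks (right) near SPIN1 (circles) and SPINDOC (triangles). Filled symbols are start peaks and open symbols all others. All 9 filled symbols lie at 1.46 times the floor or higher, and the deepest are those of SPINDOC, at 18 and 20 fragments.

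Some peaks lay far from the other list, in shares near those of the whole lists or above them. Of the 21 Spindlin1 peaks, 2 had no C11orf84 peak within 5 kb, where 8.36% of the whole list had none, and of the 30 C11orf84 peaks 5 had no Spindlin1 peak that near, against 10.9%. Both Spindlin1 peaks and 4 of the C11orf84 peaks were at SPIN1. A −log10 q of 10 was passed by 1 Spindlin1 peak (4.76% of 21) and by 4 C11orf84 peaks (13.3% of 30), where 11.8% and 15.7% of the whole lists passed it. They were the second Spindlin1 peak and the second C11orf84 peak of the SPINDOC start and 3 C11orf84 peaks of the cluster upstream of that gene.

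The 2 genes lay in surroundings of very different peak density. Within 50 kb of SPIN1 the density was 36.6 Spindlin1 and 52.4 C11orf84 peaks per Mb. The rest of the 1 Mb centred on the gene had 61.8 and 69.2 per Mb, and the genome mean was 52.2 and 60.5. The window of SPIN1 thus had 0.593 and 0.756 times the density of its surroundings. This order turned when the window was widened to 100 kb on either side, which gave 1.04 and 1.30 times. Over the start alone, the covered share of bases was 19.3 times that of the surroundings for Spindlin1 and 14.4 times for C11orf84.

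SPINDOC lay at the edge of a region dense in peaks. Within 50 kb of it there were 121 Spindlin1 and 172 C11orf84 peaks per Mb, against 322 and 370 in the rest of its 1 Mb, 0.374 and 0.466 times. Nearly all of the surrounding peaks were on 1 side. The upstream part of the surroundings held 16 Spindlin1 and 25 C11orf84 peaks in 442 kb, and the downstream part held 269 and 302 in the same length. Against the upstream part alone the window had 3.33 and 3.05 times the density, and against the downstream part 0.198 and 0.252 times. In the counts by 50 kb, the fullest bins of the 1 Mb held 50 peaks of each list, at 200 to 250 kb past the middle of the gene for Spindlin1 and 250 to 300 kb for C11orf84. The covered share of bases at the SPINDOC start was 2.32 times that of the surroundings for Spindlin1 and 1.46 times for C11orf84. Set against the genome, the covered share at the SPINDOC start was 16.3 times for Spindlin1 and 10.5 times for C11orf84. At the SPIN1 start it was 17.3 and 14.1 times the genome value, so the 2 starts differed less by this measure.

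**Figure D4:**
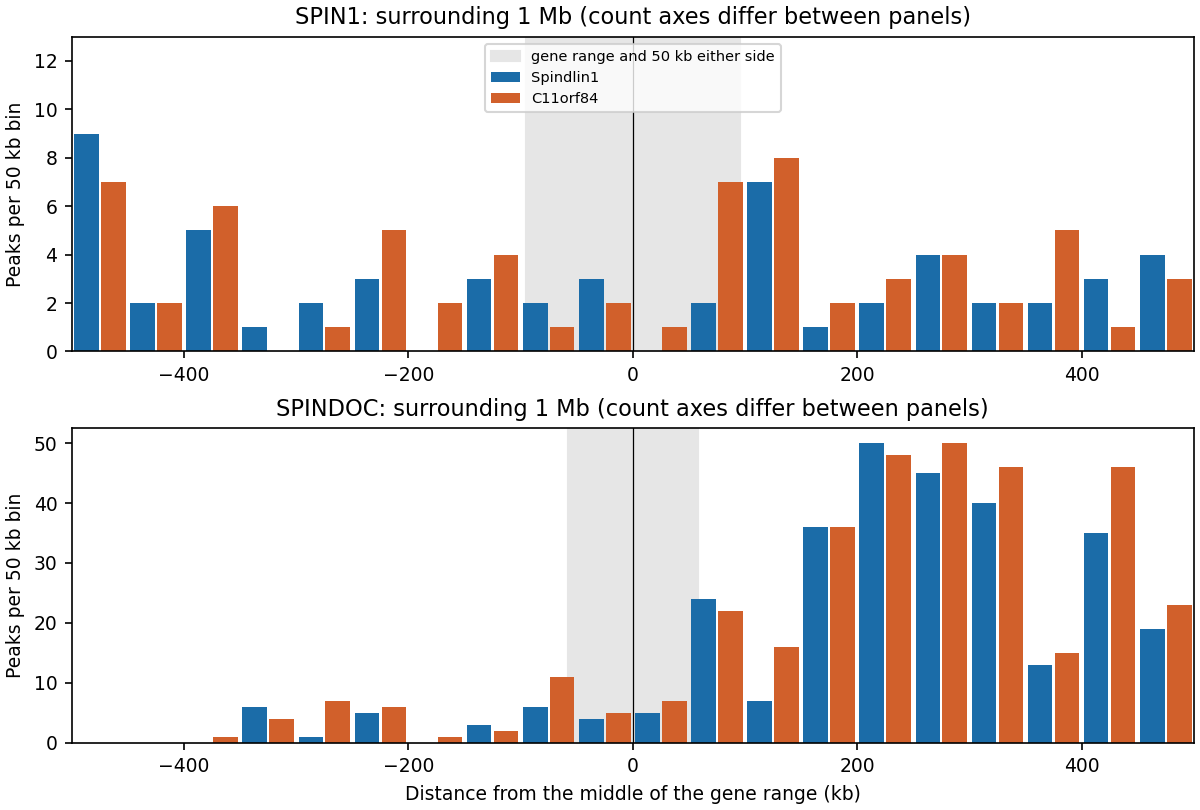
Peaks per bin of 50 kb over the 1 Mb centred on SPIN1 (upper panel) and SPINDOC (lower panel), counted by summit, with blue bars for Spindlin1 and orange bars for C11orf84. The horizontal axis is the distance in kb from the middle of the gene range, grey marks the gene with 50 kb on either side, and the vertical scales of the panels differ. Bins of the 1 Mb around SPIN1 hold at most 9 peaks of a list, and those past SPINDOC rise to 50.

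Sharing in the surroundings, by the overlap of at least 1 bp, was higher at SPINDOC than at SPIN1. In the rest of the 1 Mb, 239 of 285 Spindlin1 peaks (83.9%, 79.1 to 87.9) and 229 of 327 C11orf84 peaks (70.0%, 64.7 to 74.9) were shared at SPINDOC. The corresponding numbers at SPIN1 were 33 of 50 (66.0%, 51.2 to 78.8) and 30 of 56 (53.6%, 39.7 to 67.0). The intervals of the 2 places did not overlap for Spindlin1 and did for C11orf84, and the difference was not tested. Peaks covered 11.15% (Spindlin1) and 14.73% (C11orf84) of the bases of the surroundings at SPINDOC, against 1.419% and 2.002% at SPIN1. Median peak width in the surroundings was 288 and 301 bp at SPINDOC, against 185 and 204 bp at SPIN1. Denser and wider peaks meet the 1 bp overlap more easily, and their part in the higher sharing was not tested. Median depth in these surroundings was 11 fragments for Spindlin1 at both genes, and 12 at SPINDOC and 11 at SPIN1 for C11orf84. Single peaks of the surroundings went deeper than the start peaks, up to 23 fragments in both lists near SPIN1 and up to 29 and 24 near SPINDOC.

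The edges of the windows set which peaks were counted. Just outside the SPIN1 window, the next C11orf84 peak downstream, 4.92 kb beyond it at 91148915 to 91149484, was shared and had 22 fragments, more than any peak inside. The next Spindlin1 peak there had 13. Just outside the SPINDOC window, a Spindlin1 peak of 19 fragments and fold 10.3 lay 1.07 kb beyond the upstream edge, at 63528674 to 63528933, next to the cluster inside. The last C11orf84 peak before that edge, at 63529300 to 63529525, had 14 fragments, and the one that crosses the edge had 15.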

How the data were processed

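Alignment was to hg19 with Bowtie 1.2.2, per the submitters' processing notes. Which peak caller was used, at which threshold and with which control, is not given in the sources here. The authors deposited 1 peak list per antibody library, with a fold enrichment (ratio of the summit to local background), a −log10 p-value, a −log10 q-value and a score. The deposited score was 10 times that q column rounded down in 100% of peaks and entered no result. Positions are printed counting from 1.

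Summit depth k and background λ were recovered from the fold, (k + 1)/(λ + 1), and from the p-value, read as the upper Poisson tail beyond k. A whole k met both values of 100% of peaks (largest error 0.000174 in −log10 p). The code was tested on simulated data. Surroundings are the 1 Mb centred on the gene without the window of 50 kb on either side. Genome density is over first to last peak of chromosomes 1 to 22 and X.

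The genes and lists of this work were chosen with earlier results of these data known. The rule for single peaks named those at the starts, the 3 deepest of each list elsewhere and those with the other list more than 5 kb away. Clusters, peak-free intervals, 89 kb windows, 50 kb bins, the grouping of start against other peaks and both sides of the surroundings were chosen after the values were seen. A list of histone methylation genes set for this work was left out, since no hg19 annotation was used here. RefSeq tables (GRCh38.p14) served for names, gene order and the promoter, with 1 of 2 promoters matched. Alternatives were other windows, overlaps, thresholds and surroundings. The software was pandas 2.3.3 and SciPy 1.17.1 with NumPy 2.4.6, on Python 3.11.15, and matplotlib 3.10.9 for the plots.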

Additional observations from a re-analysis of the deposited data

How the results depend on the processing

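Of 96 values computed under another setting, 65 stayed close to the reported one (within 1.5 times, or within the 95% interval for shares) and 31 moved. Assigning peaks by summit, taking 1 Mb on each side as surroundings and taking 5 kb around the start moved 0 of their values. With 5 kb, the C11orf84 start count at SPINDOC went from 2 to 3, which is just at the limit of 1.5 times. The added peak, at 63576822 to 63577001, was unshared, so the start peaks were then not all shared. Asking for 50% of both intervals in common also moved 0 by this rule, but the 95% intervals of the shares are wide. Under it the Spindlin1 share at SPIN1 still went from 57.1% to 28.6%, and the C11orf84 share from 30% to 20%. No paired analysis was possible because each antibody had 1 library and no result comes from a test. Depth limits all of these results, since most peaks rest on few fragments.

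With only peaks of a −log10 q of at least 10, SPIN1 kept 0 peaks of either list within 50 kb, at its start and over its body, so its density was 0 times that of the surroundings and no share or depth could be given. SPINDOC then kept 1 Spindlin1 peak and 4 C11orf84 peaks within 50 kb, 1 of each at the start and 0 over the body. The shared part was then 100% for Spindlin1, which is 1 peak, and 25% for C11orf84, and the Spindlin1 depth was 18 fragments. Both lists were cut at this level before overlaps were counted, so a partner below it no longer made a peak shared. The C11orf84 peak at 63536325 to 63536947, shared in the full lists, was unshared here for that reason.

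With 25 kb on either side, there were 6 C11orf84 peaks at SPIN1, and 8 Spindlin1 and 11 C11orf84 peaks at SPINDOC. With 100 kb, there were 17 and 23 at SPIN1 and 39 and 47 at SPINDOC, and the density at SPIN1 became 1.04 and 1.30 times that of the surroundings. With 1 kb around the start, 1 C11orf84 peak was left at SPINDOC. With summits at most 200 bp apart, 14.3% of Spindlin1 peaks at SPIN1 were shared. Against the upstream part of the surroundings alone, a setting chosen after seeing the data, the density at SPINDOC was 3.33 times for Spindlin1 and 3.05 times for C11orf84, and against the downstream part 0.198 and 0.252 times. Fewer peaks, a changed window or a one-sided surrounding are what these settings consist of.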
